A study of Homo sapiens with 19 samples.

Results

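The tripartite motif (TRIM) family was followed as a group of genes in an RNA-sequencing series of HepaRG cells, a human hepatic carcinoma line that differentiates into hepatocyte-like and biliary-like cells. Members were the rows of the gene count table whose symbol is TRIM followed by a number and at most 1 letter, leaving out pseudogenes and readthrough genes. The pattern matched 76 of 78894 rows, 3 of them RefSeq pseudogenes (2 rows named TRIM16L and TRIM80P), which left 73 members. Of these, 50 passed the filter on low counts and were tested and 23 were not. All cells were differentiated before treatment. Batch 1 held cells transfected with a negative control siRNA (siNC), an ADAR siRNA (siADAR) or an ADARB1 siRNA (siADARB1) at 20 nM, with 3 libraries each. Batch 2 held 3 libraries of siNC at 20 nM, 2 of interferon alpha (IFNa) at 1000 U/mL, 3 of BX795 at 1 µM and 2 of BX795 at 1 µM with the ADAR siRNA at 20 nM. ADAR and ADARB1 encode enzymes that convert adenosine to inosine in double-stranded RNA, and BX795 inhibits the kinases TBK1 and IKKε, which relay signals from sensors of foreign nucleic acid to interferon genes. The compounds were added with the siRNA and kept in the medium. Each target was silenced with a single siRNA, the sources do not state whether cells given IFNa or BX795 alone also received a control siRNA, and nothing in the labels says that replicates came from separate cultures, so the p-values below measure the spread between these libraries, which may be technical.

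TRIM proteins are mostly E3 ubiquitin ligases: a RING domain binds an E2 enzyme that carries ubiquitin, B-boxes and a coiled coil assemble the protein into dimers and larger arrays, and a C-terminal domain chooses the substrate. Many members with a PRY-SPRY domain at that end act in antiviral defence, either by binding viral proteins or by tagging sensors and adaptors such as RIG-I (the RNA sensor), MAVS and STING1 (adaptors) with ubiquitin, and several are themselves induced by interferon. Other members have different work: TRIM24, TRIM28, TRIM33 and TRIM66 are chromatin cofactors, a microtubule-binding group includes the neuronal TRIM9 and the muscle proteins TRIM54, TRIM55 and TRIM63, and TRIM2, TRIM3, TRIM32 and TRIM71 carry NHL repeats.

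Type I interferon acts on genes through the transcription factor complex ISGF3, which binds the interferon-stimulated response element (ISRE). A core of that element, GAAA and GAAA with any 2 bases between them, was searched for on both strands in RefSeq promoter windows (GRCh38.p14, 250 bases before to 50 bases after a start site, 300 in all). A window was found for 58 of the 73 members, among them 38 of the 50 tested. The core was present in at least 1 window of 1195 of 27305 genes (4.38%), of 9 of the 38 tested members (23.68%) and of 6 of the 11 members with a window that rose with IFNa (54.55%). It was in none of the 9 that fell with IFNa, and in 3 of the 18 that passed no threshold there (16.67%: TRIM16, TRIM2 and TRIM44). The stretches around the match are given for the 6 members that rose and for TRIM16, which rose with the ADAR siRNA and not with IFNa, read 5′ to 3′ on the gene's strand with matched bases in capitals; TTTC marks a core that lies on the opposite strand.
TRIM14, chr9:98119223-98119273, minus strand: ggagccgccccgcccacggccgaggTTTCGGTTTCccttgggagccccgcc
TRIM5, chr11:5685075-5685126, minus strand: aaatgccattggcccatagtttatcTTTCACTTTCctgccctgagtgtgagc
TRIM69, chr15:44736441-44736500, plus strand: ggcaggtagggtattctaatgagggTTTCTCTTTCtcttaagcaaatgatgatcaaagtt
TRIM26, chr6:30213560-30213625, minus strand: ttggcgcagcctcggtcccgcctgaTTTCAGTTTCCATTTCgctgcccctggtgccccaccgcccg
TRIM34, chr11:5624901-5624930, plus strand: gccccaaaaaTTTCACTTTCatttctcagg
TRIM21, chr11:4393670-4393685, minus strand: GAAACTGAAAGTGAAA
TRIM16, chr17:15683012-15683041, minus strand: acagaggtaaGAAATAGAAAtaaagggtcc
The match began 26 bases before the start site in TRIM14, 27 in TRIM5, 62 in TRIM69, 80 in TRIM16, 90 in TRIM34 and 194 in TRIM26, and at base 18 after it in TRIM21. TRIM21 and TRIM26 each held 2 overlapping matches. The stretches of TRIM34 and TRIM16 lie inside the annotated gene, before an internal start site. A longer form, the core followed by CT, was found in 88 genes (0.32%) and, among the tested members, in TRIM26. The GAS element of interferon gamma signalling, TTCNNNGAA, was in 9.38% of genes, in 5 of the 38 tested members (13.16%) and in none of the 11 that rose with IFNa. A match describes letters and is not evidence of binding, and a window without a match says nothing of sequence outside it.

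Library totals were 42651945 to 77103677 counts in batch 1 and 13080846 to 34720024 in batch 2, where siNC replicates 2 and 3 had the lowest totals. ADAR was at 60.58 to 70.63 CPM (read counts relative to library size, with TMM scaling) in the siADAR libraries against 259.7 to 264.2 in batch 1 siNC, and at 52.48 and 55.82 with BX795 and the ADAR siRNA against 251.8 to 279.9 with BX795. ADARB1 was at 10.27 to 11.35 CPM with its siRNA against 31.39 to 33.46. The hepatocyte marker ALB was at 41570 to 43750 CPM in batch 1 siNC and at 6234 to 7589 in batch 2 siNC, while the leukocyte markers PTPRC and CD3E did not exceed 0.373 CPM. The myeloid markers CD14 (3.54 to 15.29 CPM) and CD68 (14.23 to 41.99 CPM) were detected in every library. The muscle markers MYOG and CKM were at 0 in every library but 1 (CKM at 0.0622), and MYH1 was at 0 to 1.233 CPM. All 4 tested biliary or progenitor markers rose with the ADAR siRNA (KRT19 by 1.22 and SPP1 by 1.43 on the log2 scale), and with BX795 KRT7 (1.18) and SOX9 (0.58) rose and KRT19 (-1.61) and SPP1 (-0.53) fell. Of 6 hepatocyte markers, 4 fell with the ADAR siRNA, among them HNF4A (-0.68) and ALB (-0.59), and CYP3A4 rose (2.24), while with BX795 2 rose, among them CYP3A4 (5.52), and 3 fell. The part of cell make-up in the results below was not tested, and in such bulk samples fewer cells of a type and less RNA per cell cannot be told apart. Batch 2 libraries also differed in how far GC-rich genes (over 60% GC) stood above GC-poor genes (under 40%) on the log2 scale: centred on the batch mean, the gap was 0.27, 1.08 and 0.87 in siNC, -0.41 and 0.08 with IFNa, -0.21 to -0.64 with BX795 and 0.01 and -0.53 with BX795 and the ADAR siRNA. In batch 1 it stayed between -0.08 and 0.15. Values after a correction for this trend, and against siNC replicate 1 as the sole control, therefore stand beside some of the batch 2 results that they alter.

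Per kilobase of the longest annotated transcript, TRIM28, the corepressor of KRAB zinc finger proteins, had the highest level of all members in batch 1 siNC at 45.4 CPM per kb, followed by TRIM22, an antiviral protein, at 27.3. TRIM27 (22.4), TRIM5 (20.9), TRIM35 (18.8), TRIM26 (17.4), TRIM25 (16.4) and TRIM47 (15.1) came next. In batch 2 siNC the same 2 members led, at 84.8 and 40.1 CPM per kb. At the other end, the 23 members not tested had from 0 to 67 counts over all 19 libraries. They were TRIM40 (67 counts), TRIM7 (41), TRIM72 (35), TRIM67 (25), TRIM58 (20), TRIM61 (12), TRIM17 (6), TRIM49B (5), TRIM42 (4), TRIM51 and TRIM50 (3 each), TRIM43B, TRIM49, TRIM64B and TRIM49C (2 each), TRIM60 and TRIM51G (1 each), and TRIM43, TRIM48, TRIM64, TRIM77, TRIM64C and TRIM75 with 0. Chromosome 11 carries 20 members in all, copies of TRIM49, TRIM51 and TRIM64 among those not tested. Counts are uncertain where copies or overlapping genes can share reads: TRIM16 with TRIM16L, TRIM73 with TRIM74 and TRIM50, TRIM6 and TRIM34 (a readthrough gene, and TRIM5 on the opposite strand across both), TRIM39 and TRIM59 (readthrough genes), and TRIM10 with TRIM15. The sources used here do not say whether reads were counted by strand.

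TRIM21 and TRIM16 rose and TRIM9 fell with the ADAR siRNA, TRIM34, TRIM21 and TRIM14 rose the most with IFNa, and TRIM54 fell and TRIM31 rose with BX795. A gene is called changed below at an adjusted p under 0.05 in edgeR's quasi-likelihood test, adjusted by Benjamini-Hochberg over the 23121 genes tested. With the ADAR siRNA against siNC, 10 of the 50 tested members rose and 10 fell, where 21.8% of all genes tested were called (11.0% higher and 10.8% lower). With the ADARB1 siRNA 4 fell and 0 rose, against 4.61% of all genes (2.10% higher and 2.51% lower), and 3 members were higher at an unadjusted p under 0.05 and 0 with DESeq2. Between the ADAR and ADARB1 siRNAs, which reuses the siADAR and siADARB1 libraries, 15 members were higher and 5 lower in siADAR, against 19.5% (9.90% and 9.64%). With IFNa 12 rose and 12 fell, against 34.3% (18.4% and 15.9%), and with BX795 11 rose and 18 fell, against 47.1% (23.4% and 23.7%). With BX795 and the ADAR siRNA 12 rose and 11 fell against siNC, where all genes gave 40.3% (21.4% and 18.9%), and 1 rose and 5 fell against BX795 alone, where all genes gave 9.52% (5.06% and 4.46%). The family's median log2 fold change stayed between -0.09 and 0.10 in these comparisons, where the median of all genes ran from -0.03 to 0.02 while members moved in both directions. These counts depended on the libraries: a fit of batch 1 alone called 33 members with the ADAR siRNA, where it called 37.8% of all genes, and 15 with the ADARB1 siRNA, where it called 16.7%. The 33 include TRIM40, which the main fit did not test. A fit of the IFNa and siNC libraries alone called 14 members, where it called 10.9% of all genes. On leaving out 1 library, the lowest count with the ADAR siRNA was 13 (without siNC replicate 1, 16.1% of all genes, or siADAR replicate 3, 16.9%), and with the ADARB1 siRNA it was 2 (without siNC replicate 2, 2.74%). Between the siRNAs it was 13 (without siADAR replicate 2, 14.7%), and with IFNa 13 (without IFNa replicate 1, 9.71%). With BX795 and the ADAR siRNA it was 11 against siNC (without replicate 2 of the combined treatment, 19.3%) and 3 against BX795 (without BX795 replicate 2, 6.70%, or replicate 1 of the combined treatment, 4.08%). The 4 comparisons with IFNa or BX795 share batch 2 libraries and the 3 siRNA comparisons share batch 1 libraries, so their counts are not independent of one another.

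**Figure D1:**
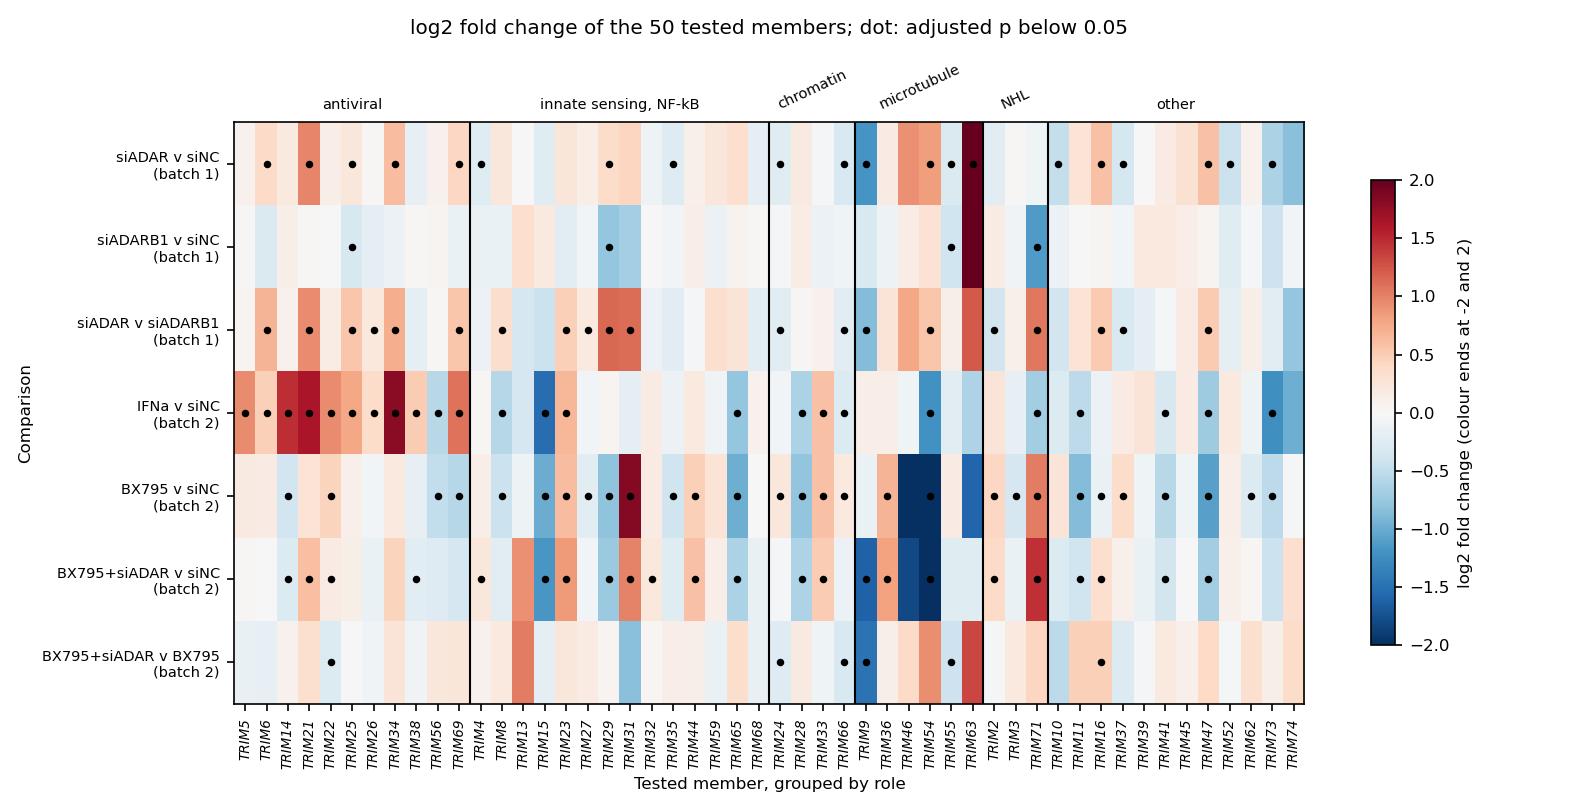
Log2 fold change of the 50 tested members (columns, grouped by role) in the 7 comparisons within batch (rows), with red for higher, blue for lower, colours ending at -2 and 2 and a black dot at an adjusted p under 0.05. In the IFNa row 10 of the 11 antiviral members in the leftmost block rise, where 18.4% of all genes do. That block was chosen as antiviral or interferon-inducible, so its rises restate the choice in part. In the BX795 row calls of both directions spread over all roles.

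Every tested member but 7 was called in at least 1 of the 7 comparisons. The 7 were TRIM13, TRIM39, TRIM45, TRIM46, TRIM59, TRIM68 and TRIM74. TRIM13 and TRIM46 had means under 1 CPM in all groups. No member was called in more than 5 comparisons, and 6 reached that number: TRIM16, TRIM29, TRIM47, TRIM54, TRIM66 and TRIM71. The matching shares of all genes were not computed, and BX795 alone called 47.1% of all genes. These counts therefore cannot tell whether the family differs from other genes.

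Among the 11 members listed as antiviral or interferon-inducible, 10 rose and 1 fell with IFNa, with a median log2 fold change of 0.94 (all genes -0.02). Of all genes tested, 18.4% rose and 15.9% fell. The list was drawn up by that role and with earlier results of these data known. Its counts with IFNa therefore restate the choice in part and are no test of it. TRIM34, a close relative of TRIM5, was at 2.134, 1.616 and 1.853 CPM in siNC and at 6.826 and 6.305 with IFNa, the largest rise of the family (1.80 ± 0.19 on the log2 scale, SE, edgeR adjusted p = 3.38e-06). TRIM21, a cytosolic receptor for antibody-coated virus, went from 7.784, 11.07 and 7.708 CPM to 26.41 and 28.28 (1.63 ± 0.12, adjusted p = 3.19e-08). TRIM14, a mitochondrial adaptor in RIG-I signalling, went from 37.54, 43.39 and 42.24 CPM to 116.5 and 111.5 (1.48 ± 0.08, adjusted p = 3.26e-10). In all 3 genes both treated libraries stood well above every control. TRIM69 rose from 35.6, 44.58 and 59.07 CPM to 95.16 and 101.1 (1.09 ± 0.13), TRIM5, which binds retroviral capsids, from 51.84, 42.03 and 43.21 to 92.92 and 84.78 (0.95 ± 0.09), and TRIM22 from 125.6, 122.2 and 111.8 to 237.5 and 222.4 (0.94 ± 0.07). TRIM25, which ubiquitinates RIG-I, rose by less, from 81.35, 81.19 and 72.56 CPM to 138.9 and 130.8 (0.78 ± 0.08), followed by TRIM38, a brake on Toll-like receptor signalling (0.50 ± 0.08), TRIM6 (0.47 ± 0.15) and TRIM26 (0.37 ± 0.07). TRIM56, which acts on STING1 signalling, was the member that fell, from 278.8, 362.1 and 382.5 CPM to 207.6 and 256.7 (-0.55 ± 0.12). Without IFNa replicate 1 the changes of TRIM56 (-0.39) and TRIM6 (0.36) were not called. Both calls were also lost in a fit of the compared groups alone. With the GC correction the list gave 9 rises and 1 fall (median 0.82), TRIM6 no longer being called, and with siNC replicate 1 as the sole control 9 rises, TRIM56 standing at -0.28 (adjusted p = 0.176) and TRIM6 at 0.16 (0.616). TRIM26 also lost its call in a fit of the IFNa and siNC libraries alone. TRIM38 kept its call in every alternative, where its smallest change was 0.19.

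**Figure D2:**
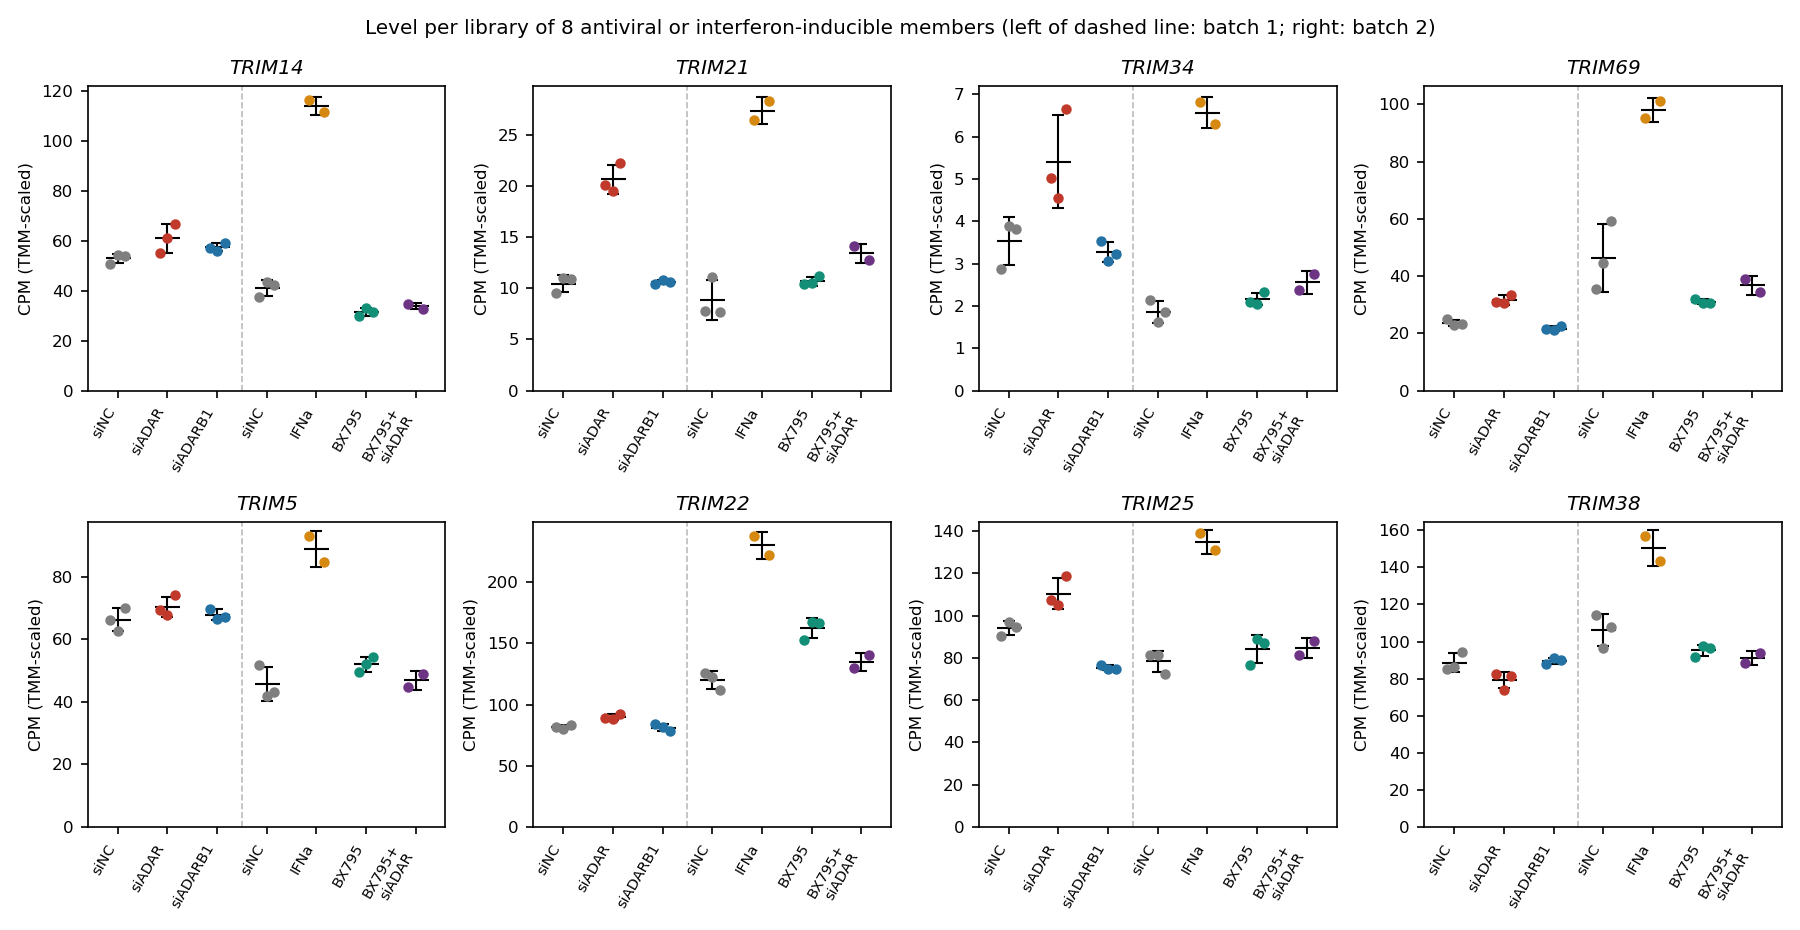
CPM of 8 antiviral members in each of the 19 libraries (points), with the mean and SD of each group and a dashed line between the batches. TRIM14 stands at 116.5 and 111.5 CPM with IFNa and between 30 and 66.67 CPM in all other libraries, while TRIM21 is raised with both IFNa and the ADAR siRNA.

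The ADAR siRNA raised 5 of the same 11 members and lowered 0, where 11.0% of all genes rose and 10.8% fell. The median of the list was 0.20 (all genes -0.02). TRIM21 was at 9.501, 10.99 and 10.87 CPM in siNC and at 20.06, 19.54 and 22.28 with the ADAR siRNA (0.98 ± 0.10, edgeR adjusted p = 1.42e-06). TRIM34 was at 2.877, 3.902 and 3.816 CPM against 5.014, 4.564 and 6.647 (0.62 ± 0.15, adjusted p = 0.00635), and TRIM69 at 24.83, 22.92 and 23.24 against 30.78, 30.59 and 33.48 (0.42 ± 0.12, adjusted p = 0.0137). The control and treated libraries did not overlap in these 3 genes, and TRIM21 showed the largest change of the list. Lack of overlap was common: of the 50 tested members, 23 lay all higher and 14 all lower with the ADAR siRNA. The share over all genes was not computed. TRIM6 (0.39 ± 0.12, adjusted p = 0.0275) and TRIM25 (0.23 ± 0.07, adjusted p = 0.0204) rose by less. TRIM14 (0.20 ± 0.07, adjusted p = 0.0507), TRIM22 (0.14 ± 0.06, 0.111), TRIM5 (0.08 ± 0.08, 0.491), TRIM56 (0.09 ± 0.11, 0.618), TRIM26 (0.02 ± 0.06, 0.855) and TRIM38 (-0.16 ± 0.07, 0.105) missed the threshold. Of these, TRIM14 and TRIM22 were called with the DESeq2 test and in fits of batch 1 or of the compared groups alone. TRIM38 was called in the same partial fits, TRIM22 and TRIM38 with the GC correction, and TRIM14 without siADAR replicate 1. TRIM21 kept its call in every alternative fit. TRIM34 lost it without siADAR replicate 3 (0.44, adjusted p = 0.0566), TRIM69 without siNC replicate 2 (0.40, 0.0532) or siADAR replicate 3 (0.37, 0.0609), and TRIM6 and TRIM25 without any of several libraries, among them siNC replicate 1 and siADAR replicate 3. The ADARB1 siRNA lowered 1 member of the list, where 2.51% of all genes fell. TRIM25 was at 90.51, 96.94 and 94.55 CPM in siNC and at 76.6, 74.78 and 74.6 with the ADARB1 siRNA (-0.32 ± 0.07, adjusted p = 0.0095, and 0.0541 without siNC replicate 2). TRIM25 thus moved in opposite directions with the 2 siRNAs, and it was higher in siADAR than in siADARB1 (0.55 ± 0.07, adjusted p = 1.18e-05).

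The response to the ADAR siRNA and the response to IFNa were compared directly by testing their difference, which crosses the batches, so that a difference between responses and one between batches cannot be told apart. Over the 50 tested members the ADAR siRNA response was higher than the IFNa response in 11 and lower in 15, where 28.7% of all genes were called (13.2% higher and 15.5% lower). In the antiviral list 9 of 11 members were lower and 1, TRIM56, was higher (0.65 ± 0.16). TRIM14 differed most in that list, by -1.27 ± 0.11 (edgeR adjusted p = 3.48e-07), then TRIM34 (-1.18 ± 0.25), TRIM5 (-0.87 ± 0.11) and TRIM22 (-0.80 ± 0.09). The gap for TRIM21, which rose in both, was -0.65 ± 0.16 (adjusted p = 0.00572). TRIM6 was the remaining member, at 0.39 ± 0.12 with the ADAR siRNA and 0.47 ± 0.15 with IFNa. Well-known interferon-stimulated genes gave the same order: MX1 rose by 3.61 ± 0.15 with the ADAR siRNA and 5.67 ± 0.17 with IFNa, and IFIT1 by 2.78 and 5.84 on the log2 scale. Outside the antiviral list, TRIM9 and TRIM16 separated the treatments. TRIM9 fell with the ADAR siRNA and was at 4.267, 4.29 and 3.039 CPM in batch 2 siNC against 4.696 and 3.718 with IFNa, where its change of 0.11 ± 0.16 missed the threshold (difference of responses -1.29 ± 0.20, adjusted p = 0.000134). TRIM16 rose with the ADAR siRNA and changed by -0.12 ± 0.06 with IFNa (difference 0.70 ± 0.08, adjusted p = 5.55e-06).

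**Figure D3:**
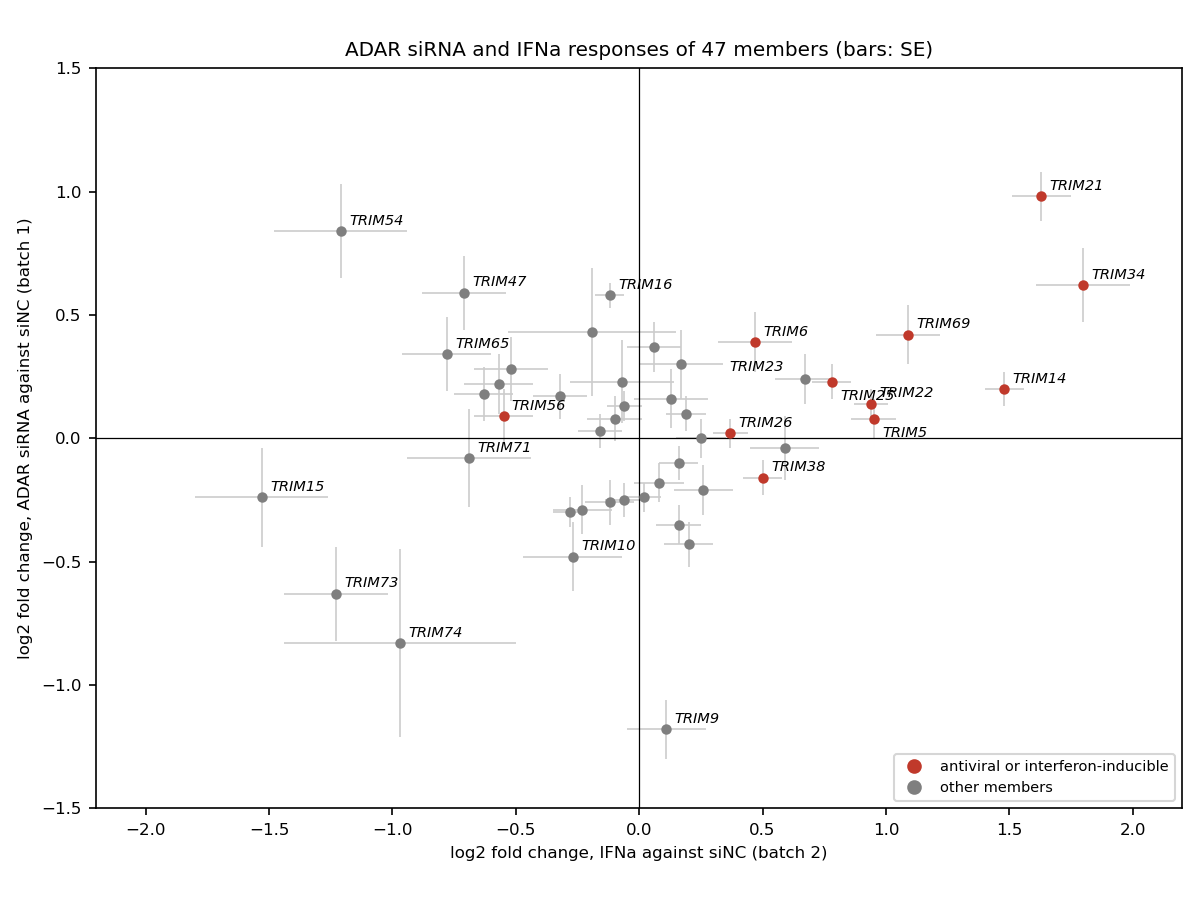
Log2 fold change with the ADAR siRNA in batch 1 (vertical axis) against that with IFNa in batch 2 (horizontal axis), with SE as bars, for the 47 tested members that averaged 1 CPM or more in a group, with the antiviral list in red. TRIM21 (0.98 and 1.63) and TRIM34 (0.62 and 1.80) rise on both axes, TRIM14 (0.20 and 1.48) lies along the IFNa axis, and TRIM9 (-1.18 and 0.11) and TRIM16 (0.58 and -0.12) lie along the ADAR siRNA axis.

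Among the antiviral members with BX795, TRIM22 rose and TRIM14, TRIM69 and TRIM56 fell, where 23.4% of all genes rose and 23.7% fell. TRIM22 was at 153.1, 167.2 and 166.8 CPM with BX795 (0.44 ± 0.06, edgeR adjusted p = 1.86e-05), above all siNC libraries and below both IFNa libraries. TRIM69 was at 32.01, 30.64 and 30.44 CPM (-0.57 ± 0.12, adjusted p = 0.00078), TRIM14 at 30, 33.24 and 31.42 (-0.38 ± 0.08, adjusted p = 0.000602), and TRIM56 at 271.3, 227.3 and 231.1 (-0.49 ± 0.11, adjusted p = 0.0011). The groups did not overlap in these genes, but the siNC libraries spread widely for TRIM69, replicate 1 being the nearest to BX795. Of the 50 tested members, 12 lay all higher and 18 all lower with BX795, and the share over all genes was not computed. With siNC replicate 1 as the sole control TRIM69 was at -0.20 (adjusted p = 0.131), TRIM56 at -0.20 (0.258) and TRIM14 at -0.25 (0.0861). With the GC correction TRIM14 was at 0.01 (adjusted p = 0.917) and TRIM22 at 0.16 (0.00956), while TRIM38 (-0.56) and TRIM26 (0.22) came to be called.

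Against siNC, the combined treatment raised TRIM71 (1.46 ± 0.22), TRIM23 (0.85 ± 0.11), TRIM36 (0.80 ± 0.15) and TRIM44 (0.59 ± 0.08) and lowered TRIM54 (-2.06 ± 0.30), TRIM9 (-1.62 ± 0.19) and TRIM29 (-0.74 ± 0.11), calls kept in every alternative fit. The smallest changes over the alternatives were 1.36 for TRIM71, 0.53 for TRIM23, 0.54 for TRIM36 and 0.33 for TRIM44. For the falls they were -1.75 for TRIM54, -1.45 for TRIM9 and -0.44 for TRIM29. In the antiviral list TRIM21 was higher (0.60 ± 0.13, edgeR adjusted p = 0.000946; 0.0621 in a fit of these 2 groups alone), as was TRIM22 by 0.17, and TRIM14 (-0.28) and TRIM38 (-0.22) were lower. The TRIM22 call was kept in 1 of 13 alternatives (adjusted p up to 0.671). The TRIM14 call was kept in 8, being lost among others without replicate 2 of the combined treatment (0.0978), and the TRIM38 call in 7, being lost among others without replicate 1 (0.166) or 2 (0.0689) of the combined treatment and with the replicate number as a block (0.0873). With the GC correction TRIM22 was at -0.05 and TRIM14 at 0.03, neither called.

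When the ADAR siRNA was given with BX795, it changed 6 tested members against BX795 alone: TRIM16 rose, and TRIM9, TRIM55, TRIM66, TRIM22 and TRIM24 fell. TRIM16 and TRIM9 kept the call in all 12 alternatives, TRIM66 in 9 (lost without replicate 1 of the combined treatment, adjusted p = 0.0733), and TRIM55 and TRIM24 in 5 each. The TRIM55 call was lost without BX795 replicate 2 (0.122) or 3 (0.0565), without replicate 2 of the combined treatment (0.183) and with the replicate number as a block (0.0935). The TRIM24 call was lost without BX795 replicate 2 (0.0636) or 3 (0.0674), without replicate 1 of the combined treatment (0.278) and with the block (0.165). TRIM21 was at 10.4, 10.48 and 11.17 CPM with BX795 and at 14.08 and 12.74 with both (0.32 ± 0.12, edgeR adjusted p = 0.107), so it missed the threshold there. With the GC correction TRIM21 was called higher in that comparison. TRIM22 was at 129.8 and 140.2 CPM with both against 153.1 to 167.2 with BX795 (-0.27 ± 0.07, adjusted p = 0.015), a call lost in 5 alternatives including without BX795 replicate 2 (0.0628) and without replicate 1 of the combined treatment (0.144). The effect of the ADAR siRNA with BX795 minus that without it was tested too, again across batches, from which it cannot be told apart. In that test 2 of the 50 members were lower and 0 higher, where 3.42% of all genes were called (1.42% higher and 2.0% lower); 5 members were higher at an unadjusted p under 0.05 and 1 with DESeq2. The 2 were TRIM21, whose response was lower by 0.66 ± 0.16 with BX795 (adjusted p = 0.0269), and TRIM22, lower by 0.41 ± 0.09 (adjusted p = 0.0143). The TRIM21 call was lost without siNC replicate 1 of batch 1, siADAR replicate 3, BX795 replicate 2 or replicate 2 of the combined treatment, with adjusted p of 0.0516 to 0.0819, and the TRIM22 call without replicate 1 of the combined treatment (0.0817). With the replicate number as a block neither was called (0.0857 for TRIM21 and 0.073 for TRIM22). MX1, for comparison, rose by 3.61 ± 0.15 with the ADAR siRNA without BX795 and by 1.30 ± 0.16 with it.

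TRIM9 and TRIM16 changed with the ADAR siRNA in both batches, with and without BX795. TRIM9, a microtubule-binding ligase best known from neurons (14:50975266-51095105), was at 19.48, 19.54 and 17.87 CPM in batch 1 siNC and at 7.96, 9.603 and 7.557 with the ADAR siRNA, the largest fall of the family there (-1.18 ± 0.12, edgeR adjusted p = 8.33e-07). With BX795 it was at 3.595, 3.708 and 3.396 CPM and with BX795 and the ADAR siRNA at 1.078 and 1.443 (-1.48 ± 0.18, adjusted p = 3.37e-05). The treated libraries lay below every control in both batches, although the level in batch 2 controls was already lower. With the ADARB1 siRNA TRIM9 was at 15.92, 15.42 and 14.68 CPM (-0.30 ± 0.12, adjusted p = 0.179), and it was lower in siADAR than in siADARB1 (-0.87 ± 0.12, adjusted p = 2.86e-05). TRIM16, which lacks a RING domain and acts in the response to damaged membranes and oxidative stress (17:15627966-15684311), was at 48.45, 49.84 and 50.66 CPM in batch 1 siNC and at 71.97, 76.67 and 73.68 with the ADAR siRNA (0.58 ± 0.05, adjusted p = 1.55e-07). With BX795 it went from 38.95, 37.39 and 38.15 CPM to 53.06 and 53.13 when the ADAR siRNA was added (0.48 ± 0.06, adjusted p = 2.45e-05). The ADARB1 siRNA (0.05 ± 0.05) and IFNa left it without a call. Both genes kept these calls in every alternative fit. The near-identical TRIM16L rose alongside, by 0.43 ± 0.06 with the ADAR siRNA and by 0.44 ± 0.07 with BX795, so reads of the 2 genes may not be separable. Biliary and hepatocyte markers moved with the ADAR siRNA in the same libraries, KRT19 and CYP3A4 upwards and HNF4A and ALB downwards, and their part was not tested.

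**Figure D4:**
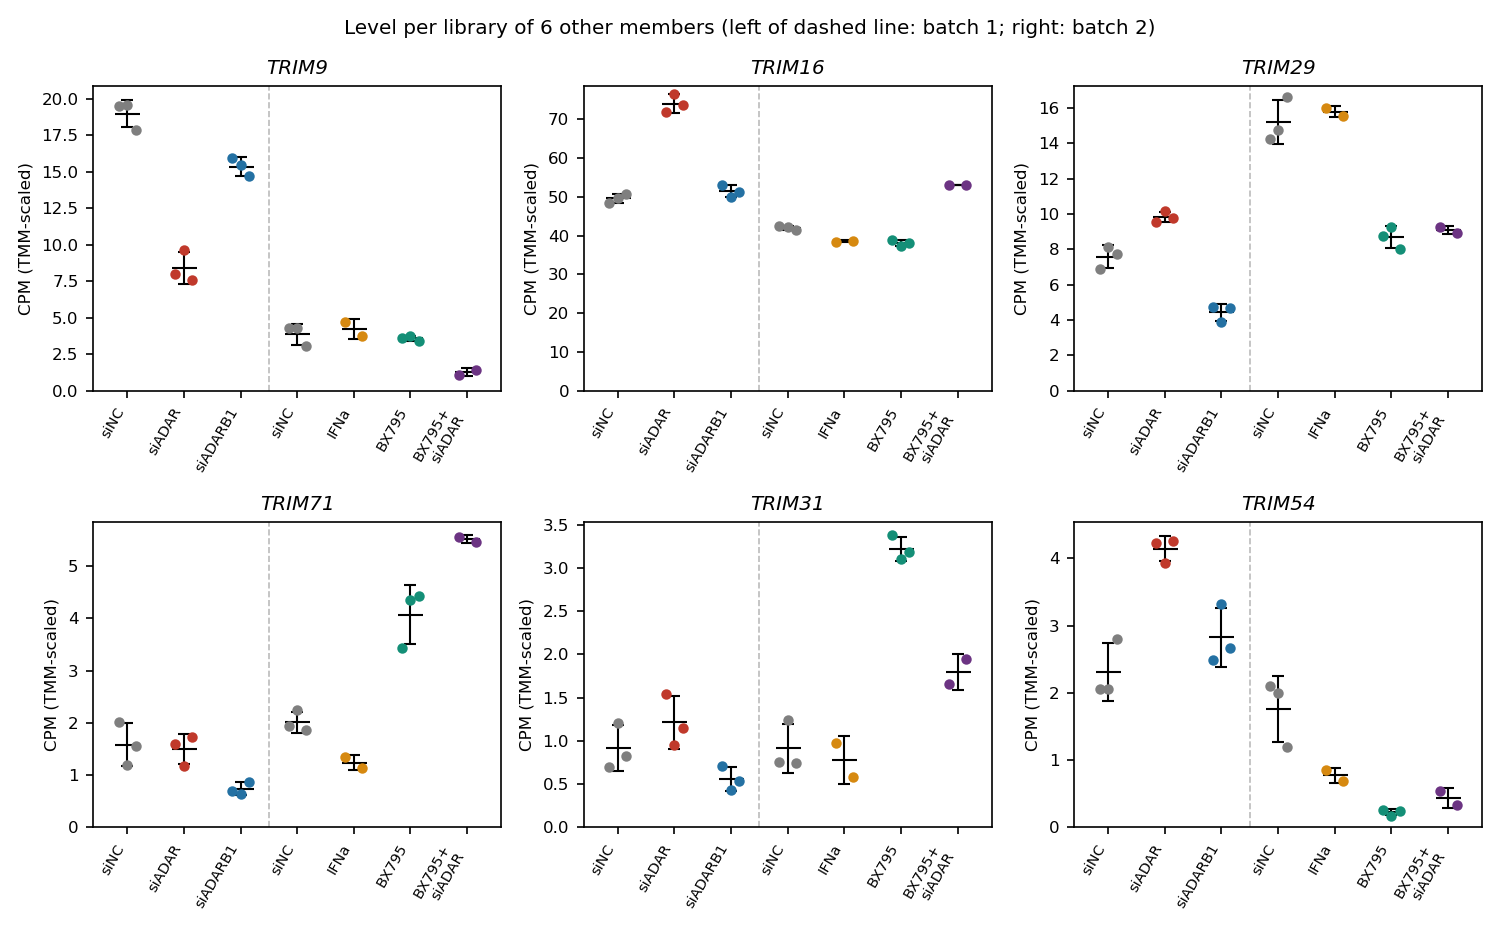
CPM of TRIM9, TRIM16, TRIM29, TRIM71, TRIM31 and TRIM54 in each of the 19 libraries (points), with the mean and SD of each group and a dashed line between the batches. TRIM9 is low and TRIM16 high in both groups given the ADAR siRNA, TRIM29 and TRIM71 are low with the ADARB1 siRNA, and with BX795 TRIM54 lies at 0.2568 CPM or less and TRIM31 at 3.101 CPM or more.

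The microtubule-associated list, 6 tested members, gave 2 rises and 2 falls with the ADAR siRNA (21.8% of all genes called) and 1 of each with BX795 (47.1%). Its members TRIM54, TRIM55 and TRIM63 encode muscle RING finger proteins, which work at the sarcomere of striated muscle; here the muscle markers MYOG and CKM were at or near 0 and MYH1 at 0 to 1.233 CPM, as given above. TRIM54 (2:27282429-27307435) was at 2.063, 2.05 and 2.8 CPM in batch 1 siNC and at 4.232, 3.932 and 4.266 with the ADAR siRNA (0.84 ± 0.19, edgeR adjusted p = 0.00306). In batch 2 it went from 2.094, 1.989 and 1.186 CPM in siNC to 0.2568, 0.1686 and 0.2447 with BX795, the largest change among members that averaged 1 CPM or more (-3.0 ± 0.30, adjusted p = 6.34e-07). The fall stood at -2.61 with the GC correction and at -3.22 against siNC replicate 1 alone, both called. With BX795 and the ADAR siRNA it was at 0.5388 and 0.3331 CPM (-2.06 ± 0.30 against siNC), and with IFNa at 0.8469 and 0.6925 (-1.21 ± 0.27, adjusted p = 0.00249; 0.0624 in a fit of these 2 groups alone). TRIM55 fell with both siRNAs, from 11, 10.67 and 9.749 CPM to 8.631, 8.835 and 8.206 with ADAR (-0.29 ± 0.10, adjusted p = 0.0414) and to 7.548, 8.77 and 7.454 with ADARB1 (-0.40 ± 0.10, adjusted p = 0.0224). The first call was lost without siNC replicate 1 (0.151) or 2 (0.113), without siADAR replicate 1 (0.0917), 2 (0.0723) or 3 (0.138) and with the replicate number as a block (0.0716). The second was lost without siNC replicate 1 (0.118) or 2 (0.0909) and without siADARB1 replicate 1 (0.12) or 3 (0.123). TRIM63 was near 0: siNC of batch 1 held 2 counts and siADAR 34, a ratio of levels of 19.1 with an exact 95% interval of 4.91 to 164 that covers counting error only, and no library exceeded 0.32 CPM. TRIM36 rose with BX795 from 3.24, 3.295 and 3.483 CPM to 5.221, 5.596 and 5.201 (0.68 ± 0.14, adjusted p = 0.000534), though with the GC correction its change was 0.36.

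TRIM29 and TRIM71 had the largest falls with the ADARB1 siRNA. TRIM29, a member without a RING domain that restrains innate signalling (11:120111286-120138113), was at 6.87, 8.125 and 7.747 CPM in siNC and at 4.72, 3.878 and 4.688 with the ADARB1 siRNA (-0.78 ± 0.10, edgeR adjusted p = 0.000101). The ADAR siRNA raised it to 9.544, 10.15 and 9.765 CPM (0.37 ± 0.10, adjusted p = 0.00859; 0.058 without siNC replicate 1). TRIM29 therefore had siNC between the 2 siRNAs, and the contrast of siADAR with siADARB1 was 1.15 ± 0.10 (adjusted p = 1.51e-07). TRIM71, also called LIN41, an RNA-binding protein of early development (3:32817997-32897824), was at 2.006, 1.186 and 1.552 CPM in siNC, at 0.6862, 0.6342 and 0.871 with the ADARB1 siRNA (-1.13 ± 0.21, adjusted p = 0.00264) and at 1.584, 1.175 and 1.732 with the ADAR siRNA (-0.08 ± 0.20, adjusted p = 0.826). Both falls with the ADARB1 siRNA kept their call in every alternative fit. With BX795 the 2 genes went opposite ways. TRIM29 fell from 14.26, 14.73 and 16.6 CPM to 8.774, 9.271 and 8.015 (-0.80 ± 0.10; -0.43 with the GC correction, still called), and TRIM71 rose from 1.936, 2.238 and 1.853 CPM to 3.424, 4.349 and 4.436 (1.02 ± 0.21), reaching 5.568 and 5.468 with the ADAR siRNA added (1.46 ± 0.22 against siNC).

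Regulators of innate sensing and NF-κB outside the antiviral list, 14 of them tested, gave 1 rise and 2 falls with the ADAR siRNA (21.8% of all genes called), 1 rise and 3 falls with IFNa (34.3%), and 3 rises and 6 falls with BX795 (47.1%). TRIM31, which activates MAVS (6:30102897-30113090), was at 0.7507, 1.243 and 0.7411 CPM in batch 2 siNC and at 3.381, 3.101 and 3.182 with BX795 (1.83 ± 0.29, edgeR adjusted p = 6.29e-05), the largest rise of the family there. With BX795 and the ADAR siRNA it was at 1.652 and 1.943 CPM (0.99 ± 0.32 against siNC, adjusted p = 0.0183; -0.84 ± 0.29 against BX795, 0.0758). The call against siNC was kept in 7 of 13 alternatives and lost in a fit of these 2 groups alone (0.0811), without siNC replicate 1 (0.0791) or 3 (0.0685), without replicate 2 of the combined treatment (0.157), with the replicate number as a block (0.0597) and against siNC replicate 1 alone (0.0626). TRIM65, which ubiquitinates the RNA sensor MDA5, fell with BX795 from 20.59, 24.49 and 32.09 CPM to 14.55, 12.61 and 11.72 (-0.98 ± 0.16). With the GC correction that fall was -0.49, still called. With IFNa TRIM65 fell to 12.81 and 17.06 CPM (-0.78 ± 0.18). The IFNa call was lost against siNC replicate 1 alone (-0.49) and without IFNa replicate 1 (-0.56). TRIM15 fell with IFNa from 14.11, 23.81 and 23.57 CPM to 4.517 and 9.804 (-1.53 ± 0.27) and with BX795 to 13.65, 8.664 and 8.596 (-0.99 ± 0.23), where siNC replicate 1 was close to BX795 replicate 1 and the change against it alone was -0.47 (adjusted p = 0.259). TRIM23, which makes atypical ubiquitin chains on the NF-κB regulator NEMO, rose with BX795 from 16.99, 12.5 and 16.6 CPM to 20.54, 24.51 and 25.54 (0.61 ± 0.11), and TRIM44 from 133.3, 109.5 and 111.9 to 156, 169.6 and 171.2 (0.48 ± 0.07); the GC correction left 0.24 and 0.16, both called. TRIM4, a RIG-I ligase, fell with the ADAR siRNA from 50.89, 52.33 and 49.34 CPM to 42.89, 41.89 and 44.41 (-0.24 ± 0.06, adjusted p = 0.0098).

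Of the 4 chromatin cofactors, TRIM24 and TRIM66 fell with the ADAR siRNA, TRIM28 and TRIM66 fell and TRIM33 rose with IFNa, and TRIM24, TRIM33 and TRIM66 rose and TRIM28 fell with BX795. Of all genes, 21.8% were called with the ADAR siRNA, 34.3% with IFNa and 47.1% with BX795. TRIM28 was at 206.4, 276 and 270.6 CPM in batch 2 siNC, at 140.7 and 183.8 with IFNa (-0.63 ± 0.12, edgeR adjusted p = 0.00104) and at 157.4, 135.5 and 143.7 with BX795 (-0.79 ± 0.11, adjusted p = 2.18e-05). All treated libraries were below all controls, but the GC correction took the changes to -0.22 and -0.21. The IFNa call was lost against siNC replicate 1 alone (-0.37) and without IFNa replicate 1 (-0.43). In batch 1, where the GC gap was small, TRIM28 was at 132.4, 134.5 and 136.1 CPM in siNC and at 148.4, 152.3 and 155.7 with the ADAR siRNA (0.18 ± 0.11, adjusted p = 0.279). TRIM33, a cofactor of SMAD signalling also known as TIF1γ, was at 46.66, 32.76 and 34.54 CPM in siNC, 67.39 and 47.64 with IFNa (0.59 ± 0.14) and 50.97, 63.07 and 57.76 with BX795 (0.58 ± 0.13). The change with IFNa was 0.32 after the GC correction, still called. It was 0.29 against siNC replicate 1 alone and 0.33 without IFNa replicate 1, called in neither. The call was also lost in a fit of the IFNa and siNC libraries alone. With BX795 the GC correction left TRIM33 at 0.22 (adjusted p = 0.0528) and took TRIM24 from 0.23 ± 0.07 to -0.07. TRIM24, a reader of histone marks, fell with the ADAR siRNA from 61.53, 61.4 and 57.68 CPM to 48.58, 50 and 53.18 (-0.25 ± 0.07, adjusted p = 0.00973). Among 12 partners of TRIM28 in heterochromatin, CBX1 (0.43), CBX3 (0.34) and HDAC2 (0.42) rose and CHD3 (-0.23) fell with the ADAR siRNA. Of all genes, 11.0% rose and 10.8% fell there.

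Among members with other roles, TRIM47 rose with the ADAR siRNA from 34.11, 34.08 and 34.6 CPM to 50.33, 53.51 and 50.91 (0.59 ± 0.15, edgeR adjusted p = 0.00652) and fell with BX795 from 50.1, 77.71 and 74.78 to 38.05, 25.52 and 31.08 (-1.09 ± 0.15). With the GC correction the fall was -0.27, still called. TRIM52 (-0.43 ± 0.09, adjusted p = 0.00103) and TRIM37, a ligase of the centrosome (-0.35 ± 0.08, adjusted p = 0.00261), fell with the ADAR siRNA and kept the call in every alternative fit. TRIM11 fell with BX795 from 22.76, 33.63 and 33.05 CPM to 18.7, 15.04 and 15.11 (-0.87 ± 0.14; -0.40 with the GC correction, still called). TRIM73, whose reads may be shared with TRIM74 and TRIM50, fell with IFNa from 12.68, 11.75 and 13.41 CPM to 4.953 and 5.795 (-1.23 ± 0.21, adjusted p = 0.000377) and with the ADAR siRNA by 0.63 ± 0.19 (adjusted p = 0.0188), the second call being lost without siNC replicate 1 or siADAR replicate 3.

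Called members of batch 2 differed in base composition by direction. With IFNa the median GC content of transcripts was 45.4% in the 12 members that rose and 58.6% in the 12 that fell. With BX795 it was 44.3% and 57.9%, and with BX795 and the ADAR siRNA 46.8% and 57.9% against siNC. In batch 1 the order was the other way, 51.4% for the members raised by the ADAR siRNA and 48% for those lowered. The GC correction cost TRIM6, TRIM11, TRIM41 and TRIM47 their call with IFNa, and TRIM3, TRIM8, TRIM14, TRIM16, TRIM24, TRIM33, TRIM35, TRIM37 and TRIM73 theirs with BX795. TRIM14, TRIM21, TRIM34, TRIM69, TRIM5, TRIM22 and TRIM25 with IFNa, and TRIM31, TRIM54 and TRIM71 with BX795, stayed called with it.

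**Figure D5:**
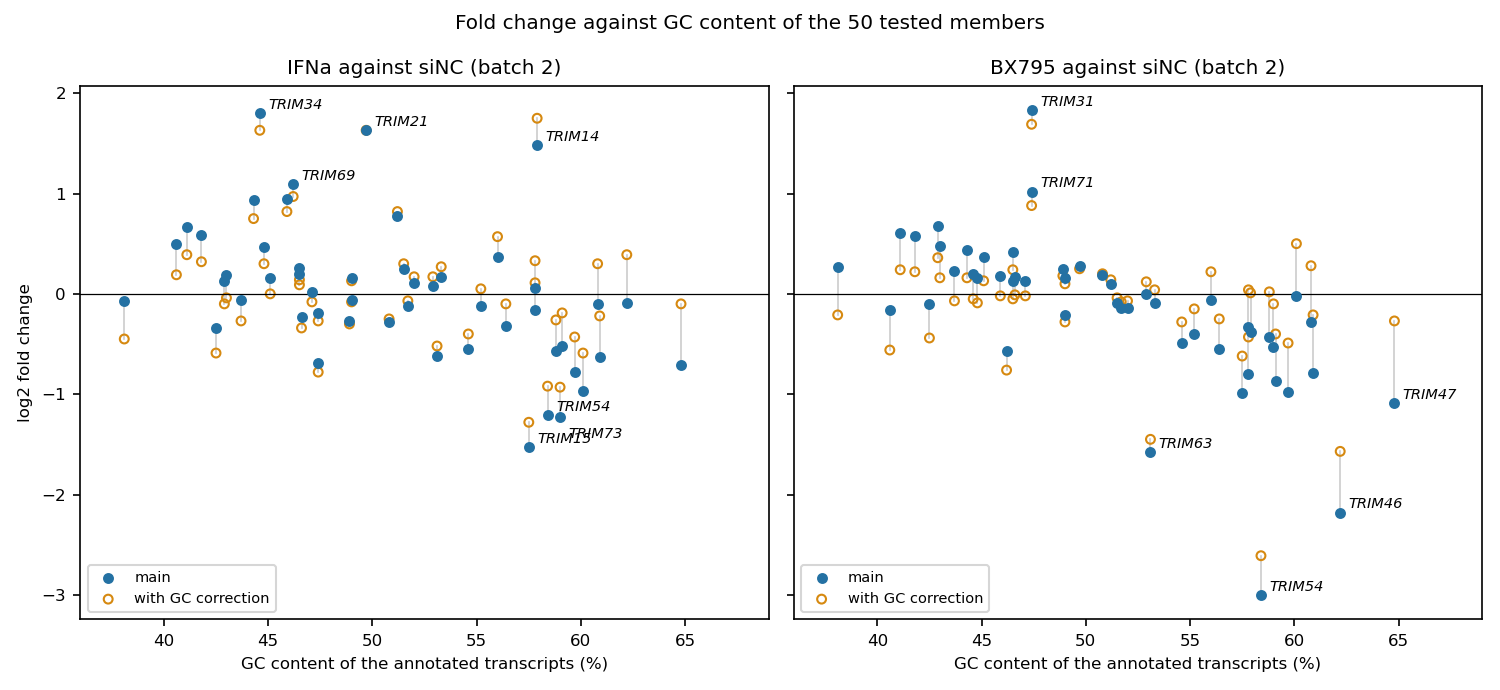
Log2 fold change of the tested members against the GC content of their transcripts (percent), for IFNa and BX795 against siNC, before (filled points) and after (open points) the GC correction. Before it, the 12 members lowered by IFNa have a median GC content of 58.6% and the 12 raised 45.4%, and after it TRIM28 moves from -0.63 to -0.22 with IFNa and from -0.79 to -0.21 with BX795.

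Neighbouring members did not all move alike. The chromosome 11 cluster holds TRIM6 (5596111-5612952), TRIM34 (5619944-5644398), TRIM5 (5588635-5685074) and TRIM22 (5689790-5710863), and all 4 rose with IFNa with a median of 0.95. Of all genes, 18.4% rose with IFNa. The TRIM6 call was kept in 6 of 13 alternatives, and counts of TRIM6 and TRIM34 are uncertain because overlapping genes can share reads. The ADAR siRNA raised TRIM6 and TRIM34 and left TRIM5 and TRIM22 without a call in the main fit, and BX795 raised TRIM22. On chromosome 6, TRIM31 (30102897-30113090), TRIM10 (30151943-30164009), TRIM15 (30163546-30172693), TRIM26 (30184455-30213406) and TRIM39 (30326469-30343729) lie within the major histocompatibility region. There TRIM26 rose and TRIM15 fell with IFNa, and TRIM31 rose and TRIM15 fell with BX795, while TRIM10 and TRIM39 passed no threshold in either.

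The partners of the family moved with the antiviral members in part. Of 13 E2 ubiquitin-conjugating enzymes, UBE2L6, the E2 of the ubiquitin-like modifier ISG15, rose with IFNa from 24.73, 31.64 and 20.9 CPM to 97.31 and 97.93 (1.92 ± 0.12) and with the ADAR siRNA from 35.32, 43.32 and 37.98 to 60.27, 67.13 and 67.28 (0.74 ± 0.10). In all, 9 of the 13 rose with IFNa and 12 with BX795, where 18.4% and 23.4% of all genes rose. Their median GC content was 43.5%. After the GC correction, which called 26% of all genes with IFNa and 34.5% with BX795 in either direction, 7 and 4 rose, and against siNC replicate 1 alone, which called 7.43% and 18%, 2 and 4 did. Of 21 sensors, adaptors and cofactors on which TRIM proteins act, 7 rose and 2 fell with the ADAR siRNA (11.0% and 10.8% of all genes). RIG-I, listed as RIGI, rose from 11.24, 9.854 and 11.59 CPM to 41.59, 42.66 and 57.29 (2.11 ± 0.14) and STING1 from 16.45, 18.94 and 16.29 to 30.29, 28.09 and 28.32 (0.75 ± 0.07), whereas MAVS fell by 0.30. With IFNa 11 rose and 4 fell (18.4% and 15.9% of all genes), RIGI reaching 128.4 and 113.2 CPM from 7.073, 4.29 and 5.188 (4.41 ± 0.17). With BX795 10 rose and 7 fell (23.4% and 23.7%). After the GC correction the counts were 7 and 2 with IFNa and 5 and 4 with BX795, beside the shares just given. STING1 fell with BX795 from 20.15, 19.46 and 19.05 CPM to 7.276, 7.484 and 7.067 (-1.43 ± 0.08) while RIGI rose to 16.18, 18.17 and 14.68 (1.53 ± 0.17). Adding the ADAR siRNA to BX795 raised 4 of the 21, where 5.06% of all genes rose: IRF7 (1.03), STING1 (0.55), OPTN (0.27) and ZC3HAV1 (0.21). Of the 5 tested relatives with the same domains under other symbols, PML, which builds nuclear bodies, rose with the ADAR siRNA from 60.85, 65.57 and 65.57 CPM to 80.42, 80.17 and 86.18 (0.36 ± 0.09) and fell with BX795 from 156.1, 194.7 and 180.9 to 114.7, 95.74 and 100.2 (-0.77 ± 0.09). MID1, a microtubule-binding ligase, rose with BX795 from 36.94, 24.25 and 31.72 CPM to 56.07, 72.28 and 69.14 (1.08 ± 0.12).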

How the data were processed

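RNA was sequenced from 19 libraries of differentiated HepaRG cells after removal of ribosomal RNA, with a directional kit and paired reads, per the labels' protocols. The authors deposited 1 table of estimated counts per gene, made with STAR and Salmon on GRCh38.p14 per the submitters' processing notes; the sources do not state versions, annotation release or strand setting. Of its values 94.82% lay within 0.005 of a whole number, and all were rounded to whole numbers (largest change 0.5). Names and gene positions come from RefSeq and transcript GC content and length from GENCODE, matched by gene ID; 61463 of 78894 genes had a symbol.

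1 model was fitted over all 19 libraries (edgeR 4.0.16 in R 4.3.3, glmQLFit and glmQLFTest, TMM scaling, filterByExpr with the groups, 12 residual degrees of freedom, common biological coefficient of variation 11.2%), with contrasts within batch and 2 differences of contrasts. P-values were adjusted by Benjamini-Hochberg over 23121 genes, and the rows of the family were read from that fit. Errors are SD over libraries for levels and SE for log2 fold changes. The GC correction added to the fit, per library, a smooth offset in transcript GC content, which 87% of the tested genes and all 50 tested members had. The code was tested on simulated data. No 2 libraries of a group agreed within sampling noise (lowest chi-square per gene 5.89), and replicate numbers were not taken to pair libraries. That chi-square was 5.91 to 19.6 in batch 1, 43.3 with IFNa and 12.3 to 48.4 in siNC of batch 2. The model shares 1 spread per gene over all groups. P-values can therefore be too small where replicates differ more, and too large where they differ less.

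Members named with values were, per comparison, the called members that averaged 1 CPM or more and were among the 6 strongest in either direction, and in every comparison TRIM5, TRIM6, TRIM14, TRIM21, TRIM22, TRIM25, TRIM26, TRIM34, TRIM38, TRIM56, TRIM69, TRIM24, TRIM28, TRIM33, TRIM4, TRIM31 and TRIM65; the other values were chosen after they were seen. The members, the role lists and the lists of related genes were chosen with earlier results of these data known. The alternatives were DESeq2 size factors, the DESeq2 test (DESeq2 1.42.0), no filter on low counts, a fit of 1 batch or of the compared groups alone, a replicate block, the GC correction, a fold of at least 1.5 and leaving out each library; the fit with siNC replicate 1 as the sole batch 2 control was chosen after seeing the data. A planned comparison of protein sequences was not run.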

Additional observations from a re-analysis of the deposited data

Results flagged for a closer look

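The tests of a difference between responses marked 18 named members whose response to the ADAR siRNA in batch 1 differed from the response to IFNa in batch 2, and 2 whose response to the ADAR siRNA differed with and without BX795. Both tests cross the batches, and a difference between treatments and one between batches cannot be told apart. Lower with the ADAR siRNA than with IFNa were TRIM9 (difference of log2 fold changes -1.29 ± 0.20 SE, edgeR adjusted p = 0.000134), TRIM14 (-1.27 ± 0.11, 3.48e-07), TRIM34 (-1.18 ± 0.25, 0.00165), TRIM5 (-0.87 ± 0.11, 3.13e-05), TRIM22 (-0.80 ± 0.09, 5.85e-06), TRIM69 (-0.67 ± 0.17, 0.00726), TRIM38 (-0.66 ± 0.10, 0.000144), TRIM21 (-0.65 ± 0.16, 0.00572), TRIM33 (-0.63 ± 0.19, 0.0203), TRIM25 (-0.55 ± 0.10, 0.000816) and TRIM26 (-0.34 ± 0.09, 0.0113). TRIM9 is the member of these that fell with the ADAR siRNA; TRIM14, TRIM34, TRIM5, TRIM22, TRIM69, TRIM38, TRIM21, TRIM33, TRIM25 and TRIM26 all rose with IFNa.

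Higher with the ADAR siRNA than with IFNa were TRIM54 (2.04 ± 0.33, edgeR adjusted p = 0.000207), TRIM47 (1.30 ± 0.22, 0.000381), TRIM15 (1.29 ± 0.33, 0.00747), TRIM65 (1.11 ± 0.23, 0.00181), TRIM28 (0.81 ± 0.16, 0.00145), TRIM11 (0.81 ± 0.20, 0.00659) and TRIM56 (0.65 ± 0.16, 0.00586). Each of these 7 fell with IFNa, though the falls of TRIM47, TRIM65, TRIM28, TRIM11 and TRIM56 were not called without IFNa replicate 1. TRIM54 and TRIM47 also rose with the ADAR siRNA. The differences for TRIM15, TRIM11 and TRIM56 were not called without IFNa replicate 1 (adjusted p = 0.0899, 0.0648 and 0.0701) or with siNC replicate 1 as the sole batch 2 control (0.14, 0.138 and 0.102). That for TRIM33 was lost in 5 of 18 alternatives, namely with the replicate number as a block (0.0735), without batch 2 siNC replicate 2 (0.0563) or 3 (0.0636), without IFNa replicate 1 (0.251) and with the sole control (0.342).

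The response to the ADAR siRNA was lower with BX795 than without it for TRIM21 (-0.66 ± 0.16, edgeR adjusted p = 0.0269) and TRIM22 (-0.41 ± 0.09, adjusted p = 0.0143). With the replicate number as a block neither was called (0.0857 and 0.073). TRIM21 was also not called without batch 1 siNC replicate 1 (0.0819), siADAR replicate 3 (0.0804), BX795 replicate 2 (0.0516) or replicate 2 of the combined treatment (0.0692), nor TRIM22 without replicate 1 of the combined treatment (0.0817).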

How the results depend on the processing

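Over all alternatives, values of named members kept their direction and side of the threshold in 2569 cases, passed it newly in 67, no longer passed it in 181 and changed sign in 5. The 5 came from the GC correction: with BX795 TRIM14 went to 0.01, TRIM26 to 0.22 and TRIM24 to -0.07, and with BX795 and the ADAR siRNA against siNC TRIM14 went to 0.03 and TRIM22 to -0.05 on the log2 scale. Fewer members were called when a fold of at least 1.5 was required: 7 instead of 20 with the ADAR siRNA, 2 instead of 4 with the ADARB1 siRNA, 7 instead of 20 between the siRNAs, 11 instead of 29 with BX795, 13 instead of 23 with BX795 and the ADAR siRNA against siNC, 1 instead of 6 against BX795, and 1 instead of 2 for the ADAR siRNA response with minus without BX795. The shares of all genes that passed with this fold threshold were not computed, so these counts cannot tell whether the family differs from other genes. A fit of 1 batch alone called 33 members with the ADAR siRNA (37.8% of all genes) and 15 with the ADARB1 siRNA (16.7%). With the combined treatment it called 15 against siNC (33%) and 2 against BX795 (3.66%). A fit of the compared groups alone called 33 (38.9% of all genes), 14 (16.1%), 10 (23.1%) and 3 (5.37%) in the same order. With IFNa it called 14 instead of 24 (10.9% of all genes). The DESeq2 test called 10 members with the combined treatment against BX795 (12.3% of all genes) and 5 with minus without BX795 (5.24%). The GC correction called 12 (16% of all genes) and 6 (6.64%). With siNC replicate 1 as the sole batch 2 control, fewer members were called in every comparison that used batch 2 siNC. A smaller share of all genes was called there too. Because that fit rests on 1 control library, its counts are not given here. Fits of 1 batch, of the compared groups or with a sole control hold fewer libraries, and the share of all genes called changed in them too. Otherwise the cause was not tested.

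Leaving out each library in turn gave 13 to 16 called members with the ADAR siRNA, 2 to 4 with the ADARB1 siRNA, 13 to 15 between them, 13 to 28 with IFNa, 24 to 33 with BX795, 11 to 26 with the combined treatment against siNC and 3 to 7 against BX795. It gave 1 to 3 for the response with minus without BX795 (1 without batch 1 siNC replicate 1, siADAR replicate 3, BX795 replicate 2 or replicate 1 of the combined treatment) and 18 to 26 for the ADAR siRNA minus the IFNa response. The share of all genes called moved as well. It ran from 16.1% to 18.5% with the ADAR siRNA and from 2.62% to 3.07% with the ADARB1 siRNA. Between them it ran from 14.2% to 15.7%, and with BX795 from 38% to 49.5%. The highest counts with IFNa and with the combined treatment against siNC came without siNC replicate 1, where 40.9% and 44.4% of all genes were called. Where 1 library was left in a group, it was assumed to vary like the other groups. TRIM21, TRIM54, TRIM47, TRIM16, TRIM9, TRIM52, TRIM37 and TRIM66 with the ADAR siRNA, and TRIM34, TRIM21, TRIM14, TRIM69, TRIM5, TRIM22, TRIM15, TRIM73, TRIM25 and TRIM38 with IFNa, were called in every alternative fit, the fold threshold aside. Batch 2 siNC totals of 13080846 to 22759602 counts limit the precision there. The 23 members with few or no counts over all libraries were not tested in the main fit. TRIM40, 1 of them, was called with the ADAR siRNA, against siNC and against the ADARB1 siRNA, in fits of batch 1 or of the compared groups alone.

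Correlations of the deviations of same-numbered libraries ran from -0.05 to 0.14 in batch 1 and from -0.58 to 0.65 in batch 2 (median -0.33), where siNC with IFNa (0.65 and 0.35) and BX795 with the combined treatment (0.45 and 0.42) deviated together and most other pairs did not, so the numbers were not taken as a pairing. With the replicate number as a block, 17 of the 20 calls with the ADAR siRNA were shared, 3 of 4 with the ADARB1 siRNA, 16 of 20 between them, 22 of 24 with IFNa and 28 of 29 with BX795. The block left 15 called members with the combined treatment against siNC, 3 against BX795 and 0 for the response with minus without BX795, where 5 members were higher and 4 lower at an unadjusted p under 0.05. The longer ISRE form was in 9.09% of the members with a window that rose with IFNa, against 54.55% for the core.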
